A study of Mus musculus with 50 samples.

Results

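The comparison describes how the wobbler mutation changed RNA in testis against how it changed RNA in spinal cord, the organs in which wr/wr mice are known to be affected. The members are the 16838 of 20355 array probes that had a value in both dyes in at least 8 of the 10 testis RNAs and in all 3 spinal cord RNAs, and 11684 of them carry 1 gene symbol, for 8646 genes. They were chosen by completeness of measurement after values over 10 in size were set to missing. With those values kept, 17005 probes met the rule. Of the probes left out, 35 had a value in both dyes in 7 testis RNAs and 2920 in 2 cord RNAs, 2680 of these for want of the cord RNA of mouse 5995, while 66 probes just inside the rule had 8 testis RNAs.

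Each array was hybridised with RNA of wr/wr mice in one dye and with a pool of wild-type (wt) RNA of the same organ in the other. Testis RNA came from 10 single wr/wr mice with 4 arrays each (40 arrays, as many with the mutant RNA in Cy5 as in Cy3). Spinal cord RNA came from pool 1 (mice 6069, 6335, 6493 and 5997; 4 arrays), pool 2 (mice 5906, 5905, 6065 and 6163; 4 arrays) and mouse 5995 alone (2 arrays), so that all 9 cord mice also gave a testis RNA and mouse 5907 gave testis only. The sample labels list the same 10 wt mice for the pools of both organs, whereas the labelling protocol gives a smaller number of control animals, and this was not settled. The sources used here give neither ages nor the background strain. Because each value is a ratio, no level of an organ's marker genes can be read from it, and the organ labels could not be checked in that way.

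The wobbler mouse carries a recessive mutation of Vps54, a subunit of the GARP complex, which tethers vesicles that return from endosomes to the trans-Golgi network. Homozygous mice lose motor neurons, with reactive astrocytes and microglia around them, and the males are infertile because the acrosome of the sperm head does not form. Vps54 is expressed in most tissues, so the same gene defect meets a non-dividing nervous tissue and an organ of continuous germ cell production. The array annotation names no probe Vps54, and its RNA was not measured.

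Values are the deposited log ratios, read here as log2 of wr/wr over wt after each array was centred on its median, averaged over both dyes within each RNA; the log base and the direction are not stated in the sources and are the likely reading. The median SD between RNAs was 0.162 in testis and 0.26 in cord, and the median size of the mean ratio was 0.0827 and 0.187. The dye orientations of an RNA were poorly related: across members, Spearman's rho between the Cy5 and Cy3 values of an RNA ran from -0.336 (mouse 6065) to 0.424 (mouse 5995) in testis and was -0.164, 0.0094 and -0.0682 for cord pool 1, pool 2 and mouse 5995. No pair of arrays of different RNAs with the same organ and dye correlated below -0.0397 (Pearson). The median pair was nevertheless close to unrelated, at 0.0604 (Cy5) and 0.0454 (Cy3) in testis and 0.0668 and 0.083 in cord. Cord medians by dye are given for many of the lists described below.

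Across all members, 28 probes (0.166%) differed between the organs at an adjusted p under 0.05 (limma, Benjamini-Hochberg), 7 with the testis ratio above the cord ratio (0.0416%) and 21 with the cord ratio above (0.125%). This balance turned with the dye: testis was above cord in 17 of 18 calls with only Cy5 arrays, in 93 of 338 with only Cy3 arrays, and in 239 of 268 with the sign of the cord Cy3 arrays turned. In 24 of the 28 the mean ratios had opposite signs, and in 25 the cord mean was the larger in size. In all 28 the 3 cord RNAs lay outside the range of the testis RNAs. In 27 the difference had the same sign in each dye, though for Fam122c it was -0.04 in Cy5 and -3.02 in Cy3. Selection by the difference favours opposite signs, separation and 1 sign in each dye. Of all members, 4729 had a testis mean above 0 with a cord mean below 0, and 5158 the reverse. The 3 cord RNAs lay above every testis RNA in 6.89% of all members and below in 7.66%. At an unadjusted p under 0.05, 2810 probes differed between the organs. Against 0, 2971 probes were called in testis (17.6%; 1709 higher, 10.1%, and 1262 lower, 7.49%) and 11 in cord (0.0653%; 8 higher, 0.0475%, and 3 lower, 0.0178%), with 5585 and 1918 at an unadjusted p under 0.05. Only 1 probe was called in both organs in the same direction, a probe of Vim, and 1 in opposite directions, of Csrp3.

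The 28 calls rest on few cord RNAs. Without cord pool 2 the fit called 1 probe, which was none of the 28; without cord pool 1 it called 21, of which 7 were among the 28; without the cord RNA of mouse 5995 it called 130, all 28 included. Leaving out 1 testis RNA gave 9 calls (mouse 6069, 6163 or 6335), 10 (5906 or 5907), 14 (5995 or 6065), 16 (6493), 21 (5905) or 28 (5997). Calls in cord against 0 ran from 2 without pool 2 and 3 without pool 1 to 75 without the cord RNA of mouse 5995, and from 5 (without mouse 5907) to 14 (without mouse 6065) over the testis RNAs. Calls in testis fell to 1847 without mouse 6493 and 1927 without mouse 6069. In the paired analysis, with the animals as a replicate block so that each cord RNA was set against the testes of its own mice, no probe was called (the lowest adjusted p was 0.357), with 2315 at an unadjusted p under 0.05. With 1 pooled spread for both organs in place of a spread for each, 3656 probes were called, the 28 included.

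With both dyes averaged as deposited, opposite signs were more common than like signs. Of the 1709 probes called higher in testis, all 3 cord RNAs lay below 0 in 744 (43.5%; 4.42% of all members) and above 0 in 158 (9.25%; 0.938% of all members), while 21% and 18.5% of all members had such cord values. Among the 1262 called lower in testis, all 3 cord RNAs lay above 0 in 453 (35.9%; 2.69% of all members) and below 0 in 157 (12.4%; 0.932%). Spearman's rho between the testis mean and the cord mean over the 16838 probes was -0.217, and it was -0.159, -0.129 and -0.189 for the cord RNA of mouse 5995, pool 1 and pool 2 taken singly. The sign of this relation turned with the dye: rho was 0.101 between the Cy5 values of both organs and 0.0196 between the Cy3 values, but -0.299 between testis Cy5 and cord Cy3 and -0.271 between testis Cy3 and cord Cy5. The probes share arrays, mice and print, and no p is given. The lists below hold 1 probe per named gene, while their shares are set against all members, which include probes without a symbol. Over the 8646 genes with 1 probe each, 11.9% were called higher and 7% lower in testis. All 3 cord RNAs lay above 0 in 17.2% of these genes and below 0 in 23.3%. They lay above every testis RNA in 6.21% and below in 8.78%.

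**Figure D1:**
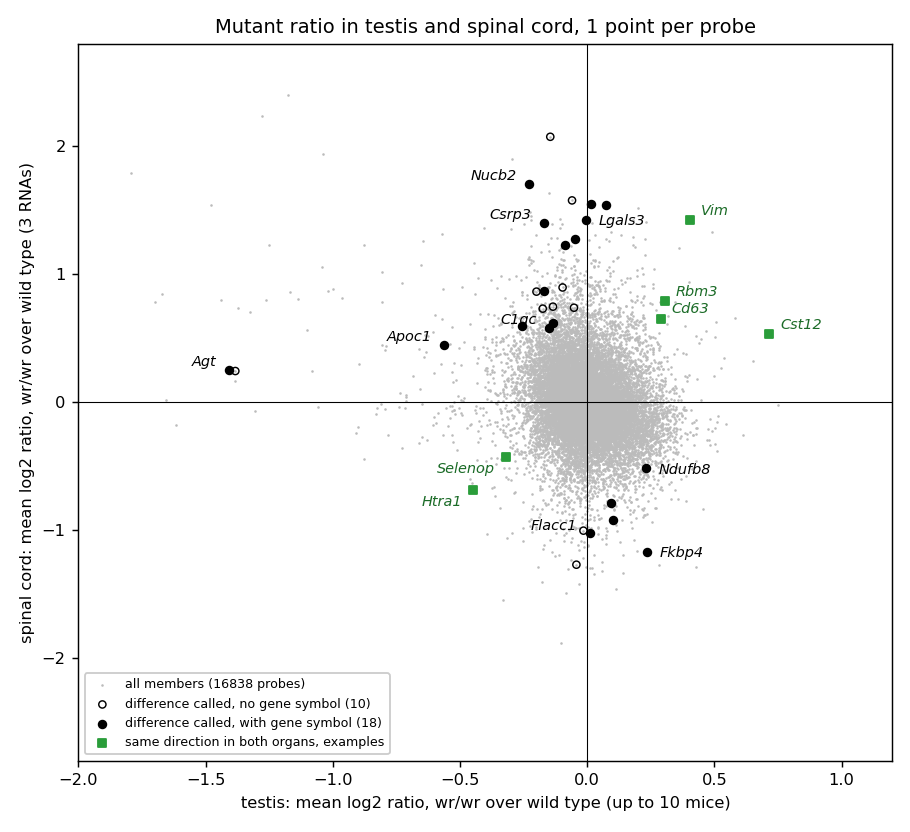
Mean log2 ratio of wr/wr over wt in testis (x axis, up to 10 mice) and in spinal cord (y axis, 3 RNAs), 1 point for each of 16838 probes. Filled black points are the 18 probes with a gene symbol called in testis minus cord, open points the 10 called without a symbol, and green squares examples with the same sign in both organs; most called points lie far from 0 along the cord axis and near 0 along the testis axis.

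Genes of microglia and macrophages stood highest in cord and not in testis. These cells clear debris in nervous tissue and reside in the testis interstitium as well. Of 18 measured genes of the list, all 3 cord RNAs lay above 0 in 12 (66.7%, against 18.5% of all members) and above every testis RNA in 9 (50%, against 6.89%), and none lay below 0 in all 3. Of the 18, 6 were called lower in testis (33.3%, against 7.49%) and none higher. The median member was 0.59 in cord and -0.10 in testis, beside -0.03 and 0.00 over all genes, and the median was above 0 in 3 of 3 cord RNAs (0.47 for mouse 5995, 0.51 for pool 1 and 0.53 for pool 2) and below 0 in 10 of 10 testis RNAs. Both dyes gave this: the cord median was 0.57 in Cy5 and 0.44 in Cy3, and the testis median -0.10 and -0.07. With the sign of the cord Cy3 arrays turned, the cord median would be 0.09 and the median difference -0.17 in place of -0.74. In bulk RNA, more cells of a type and more RNA per cell cannot be told apart.

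Lgals3, which encodes galectin-3, a carbohydrate-binding protein of activated macrophages, had cord ratios of 1.09 (mouse 5995), 1.70 (pool 1) and 1.50 (pool 2), and testis ratios from -0.27 to 0.24 with a median of 0.00. The organs did not overlap. Testis minus cord was -1.43 ± 0.20 (SE; adjusted p = 0.0158), the cord mean corresponds to a 2.69-fold higher level than wt, and the cord values were 1.44 in Cy5 and 1.42 in Cy3. The call held in 11 of 13 fits that each left out 1 RNA, and was lost without pool 1 or pool 2 (adjusted p = 0.167 and 0.18).

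C1qc, a chain of the complement initiator C1q, reached 0.43, 0.64 and 0.69 in cord, while all 10 testes lay below 0, from -0.31 to -0.04 with a median of -0.13. The difference was -0.73 (adjusted p = 0.0454), and C1qc was also called lower in testis (adjusted p = 0.00955). C1qa, another C1q chain, had the same layout (0.55, 0.80 and 0.65 in cord; -0.47 to 0.20 in testis; lower in testis at adjusted p = 0.00919), but its difference of -0.91 was not called (adjusted p = 0.0982). Cd68, a glycoprotein of macrophage lysosomes, was called lower in testis (mean -0.37 ± 0.26 SD, n = 10, adjusted p = 0.00537) and was 0.67, 0.39 and 0.74 in cord, with a difference of -0.97 (adjusted p = 0.134). Lyz2, lysozyme, also fell in testis (-0.18 ± 0.13, SD, n = 10; adjusted p = 0.013), with a cord mean of 0.61 ± 0.33 (SD, n = 3). Mpeg1, a pore-forming protein of phagocytes, gave 0.94, 0.71 and 0.92 in cord and a testis mean of 0.01 ± 0.20 (difference -0.85, adjusted p = 0.119). Ptprc, the common leukocyte antigen, did not share the pattern, with 0.17, 0.17 and -1.59 in cord on one probe and -0.26, -0.16 and -0.26 on the other.

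Lysosomal genes overlapped with this list through Cd68 and Laptm5. Of 28 measured, all 3 cord RNAs lay above 0 in 13 (46.4%) and below 0 in 4, while 5 were called higher (17.9%) and 3 lower in testis; the medians were 0.16 in cord (0.17 in Cy5 and 0.18 in Cy3) and 0.00 in testis. Ctsk, a cysteine protease, was at 0.54, 0.40 and 0.56 in cord and between -0.13 and 0.03 in testis (difference -0.51, adjusted p = 0.0851). Psap, the precursor of the saposins, rose in testis (0.25 ± 0.17, SD, n = 10; adjusted p = 0.00618) and was -0.15, -0.05 and -0.15 in cord. Of 17 complement and MHC class I genes, 6 lay above 0 in all 3 cord RNAs (35.3%) and none below, with cord medians of 0.33 in Cy5 and 0.14 in Cy3. In testis, 3 were called higher and 3 lower (17.6% each). Of all members, 18.5% lay above 0 and 21% below 0 in all 3 cord RNAs, and 10.1% were called higher and 7.49% lower in testis.

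Reactive astrocyte genes were less uniform. Gfap, the astrocyte intermediate filament, gave 0.70, 0.41 and 0.97 in cord against -0.17 to 0.12 in testis, without overlap, and just missed the threshold (difference -0.76, adjusted p = 0.0514). Among the 27 measured astrocyte genes, 9 lay above 0 (33.3%, against 18.5% of all members) and 5 below 0 (18.5%, against 21%) in all 3 cord RNAs. In testis, 4 were called higher (14.8%) and 2 lower (7.41%), shares near the 10.1% and 7.49% of all members. The medians were 0.08 in cord and -0.01 in testis. The cord median was 0.26 in Cy5 and -0.11 in Cy3. Atf3, a transcription factor induced in injured neurons, was at 0.96, 0.43 and 0.45 in cord and -0.18 to 0.02 in testis (difference -0.70, adjusted p = 0.0657). Of the 17 axon injury genes, 7 were above 0 (41.2%, against 18.5% of all members) and 6 below 0 (35.3%, against 21%) in all 3 cord RNAs. In testis, 2 of them were called higher (11.8%, against 10.1%) and 3 lower (17.6%, against 7.49%). The cord median of this list was 0.23 in Cy5 and -0.08 in Cy3.

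Csrp3, a muscle LIM protein that is also induced in injured axons, was called in all 3 comparisons. Its cord ratios were 1.90, 0.81 and 1.51 (adjusted p = 0.0164, higher), 9 of 10 testes lay below 0 (-0.39 to 0.11, median -0.17; adjusted p = 0.0331, lower), and the difference was -1.57 ± 0.20 (SE; adjusted p = 0.0136). The cord value was 1.47 in Cy5 and 1.34 in Cy3. The difference remained called in 12 of 13 fits without 1 RNA, all but the one without pool 2 (adjusted p = 0.148). The call of opposite changes in both organs was lost without testis mouse 5907, 5995, 5997, 6069, 6163, 6335 or 6493 and without either cord pool. Skeletal muscle genes did not move with it: of 16 measured, 2 lay above 0 (12.5%, against 18.5% of all members) and 6 below 0 (37.5%, against 21%) in all 3 cord RNAs.

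Apoc1 and Agt fell in testis and lay above 0 in cord. Apoc1 encodes an apolipoprotein of triglyceride-rich lipoproteins that macrophages also secrete; its testis ratios ran from -0.67 to -0.42 with a median of -0.59 (mean -0.56 ± 0.09, SD, n = 10; adjusted p = 3.31e-07), a 1.48-fold lower level. In cord it was 0.61, 0.31 and 0.42, all above 0, and the difference was -1.01 ± 0.13 (SE; adjusted p = 0.0136). Both dyes agreed closely, with -0.65 and -0.48 in testis and 0.46 and 0.44 in cord, and 11 of 13 fits without 1 RNA kept the call, which was lost without pool 1 or pool 2 (adjusted p = 0.0653 and 0.148). Its neighbour in function Apoe, the main lipid carrier of the brain, gave 0.39, 0.50 and 0.71 in cord and -0.38 to 0.10 in testis, with an uncalled difference of -0.66 (adjusted p = 0.122).

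Agt, angiotensinogen, is made by astrocytes in the nervous system and stands in the lists of both astrocytes and Leydig cells. It had the larger testis change: all 10 mice lay between -1.79 and -0.93 (median -1.45; mean -1.41 ± 0.27, SD; adjusted p = 1.19e-07), a 2.65-fold lower level. Its cord ratios were 0.07, 0.28 and 0.40, outside the testis range but close to 0, and the cord mean itself was not called (adjusted p = 0.793; 0.69 in Cy5, -0.18 in Cy3). Testis minus cord was -1.66 ± 0.29 (SE; adjusted p = 0.0419), a call kept in 5 of 13 fits without 1 RNA. Fabp3, a fatty acid binding protein, had the same layout without a call on the difference: it fell in testis (-0.90 ± 0.32, SD, n = 10; adjusted p = 3.51e-05) and was 0.40, 0.22 and 0.28 in cord (difference -1.20, adjusted p = 0.128). Its 2 other probes gave -1.06 and -0.04 in testis and -0.04 and 0.12 in cord. Over the 21 lipid carriers, 3 were called higher and 3 lower in testis (14.3% each, against 10.1% and 7.49% of all members). Their medians were -0.03 in testis and -0.08 in cord (0.05 in Cy5 and -0.15 in Cy3).

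Ephx1, Hsd17b3 and Ptgds, further members of the Leydig cell and steroid list, were called lower in testis and had cord means closer to 0 that were not called. Ephx1, microsomal epoxide hydrolase, fell in testis (-0.90 ± 0.17, SD, n = 10; adjusted p = 1.19e-07) and was -0.36, -0.10 and -0.13 in cord. Hsd17b3, which makes testosterone, fell by 0.55 (adjusted p = 1.66e-06) and was -0.41, -0.02 and -0.13 in cord, so its difference of -0.36 was not called (adjusted p = 0.267). Ptgds, prostaglandin D synthase, an enzyme of Leydig cells and of oligodendrocytes and meninges, lay between -2.58 and -1.10 in testis (adjusted p = 5.73e-06) and at -0.75, 0.16 and 0.05 in cord; no cord RNA reached the testis range, and the difference of -1.44 was not called (adjusted p = 0.208). Of 20 list members, 6 were called lower (30%, against 7.49% of all members) and 2 higher (10%, against 10.1%) in testis. The cord median was 0.03 in Cy5 and -0.26 in Cy3. Of the genes that start steroid synthesis, Cyp11a1 fell (-0.27 ± 0.24, SD, n = 10; adjusted p = 0.0143) and Star was -0.09 ± 0.28 (SD, n = 10; adjusted p = 0.458); the 2 were not compared with each other.

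Further genes were called with cord above testis. Nucb2, the precursor of nesfatin-1, was at 2.92, 0.66 and 1.55 in cord and below 0 in all 10 testes (-0.76 to -0.04), with a difference of -1.94 ± 0.34 (SE; adjusted p = 0.0419). Fam122c (2.69, 0.80 and 1.15 in cord), Slc6a16, an orphan member of the neurotransmitter transporter family (2.44, 1.51 and 0.68), Pik3ap1, an adaptor of phosphoinositide 3-kinase in immune cells (2.16, 0.56 and 1.11), and Ank3, the ankyrin of axon initial segments (1.19, 0.59 and 1.92), had wide cord spreads and large dye gaps: their cord values in Cy5 were 0.27, 0.87, 0.35 and 0.23, against 2.83, 2.22, 2.19 and 2.23 in Cy3. Sun2, a nuclear envelope protein, Pcolce, an enhancer of collagen maturation, and Pde4d, a cAMP phosphodiesterase, were called lower in testis as well (adjusted p = 0.018, 0.00175 and 0.0138), and their differences were -1.04, -0.85 and -0.75 (adjusted p = 0.0402, 0.0419 and 0.0419). Other probes of these genes did not follow: the second Sun2 probe was 0.00 in testis and 0.04 in cord, the 3 other Ank3 probes had cord means of -0.59, -0.35 and -0.21, and the 4 other Pde4d probes had cord means from -0.35 to -0.01. Of these 8 genes, each kept its call in at most 4 of 13 fits without 1 RNA.

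**Figure D2:**
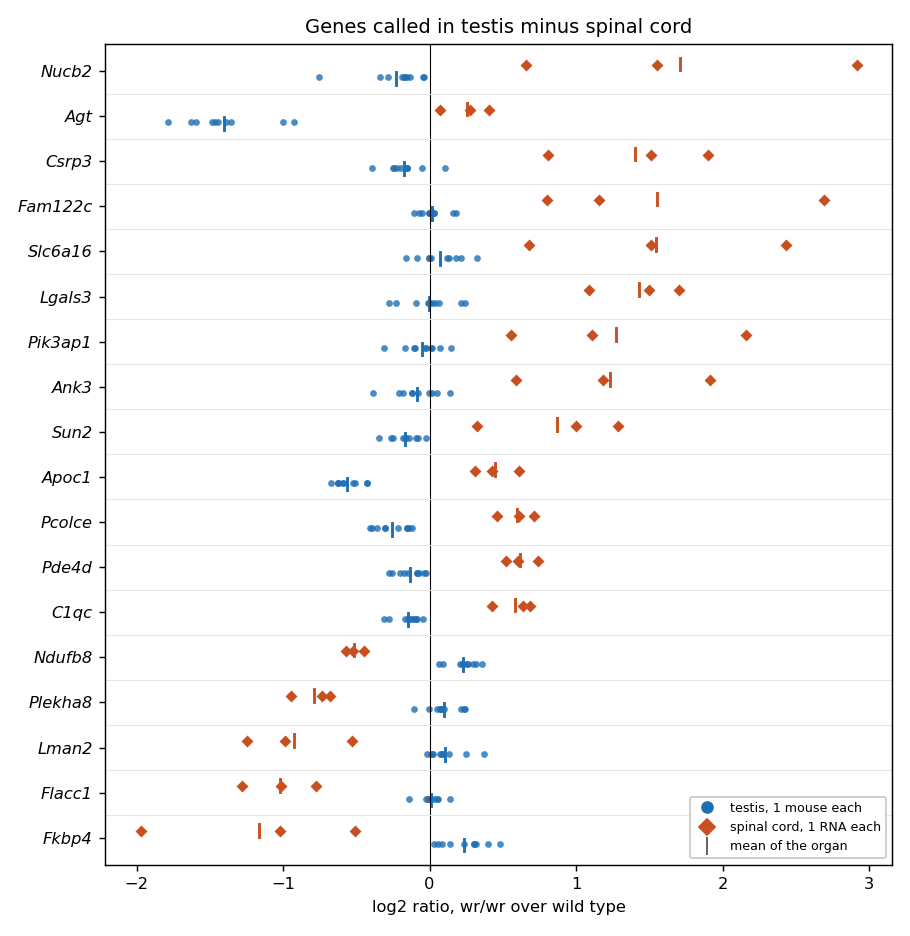
Log2 ratio of wr/wr over wt in each RNA (x axis) for the 18 genes called in testis minus cord (rows, ordered by the difference); blue points are single testis mice, orange diamonds the 3 cord RNAs and vertical ticks the organ means. The diamonds lie outside the blue points in every row, and they scatter more widely than the testes in most, from 0.66 to 2.92 for Nucb2.

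With testis above cord, 5 named genes were called. Fkbp4, an immunophilin that works with the chaperone Hsp90 in steroid receptor complexes, rose in testis (0.03 to 0.48, median 0.27; adjusted p = 0.0181) and was -1.97, -0.51 and -1.02 in cord; the difference was 1.40 ± 0.24 (SE; adjusted p = 0.0419). Its second probe gave 0.15 in testis and 0.01 in cord. Flacc1 (testis -0.14 to 0.14; cord -1.01, -0.77 and -1.28; difference 1.03, adjusted p = 0.0136), Lman2, a cargo lectin between the endoplasmic reticulum and the Golgi (cord -0.99, -0.53 and -1.24; difference 1.02, adjusted p = 0.0414), and Plekha8, a glycolipid transfer protein of the trans-Golgi network (cord -0.95, -0.73 and -0.68; difference 0.88, adjusted p = 0.0402), were near 0 in testis. Their other probes again lay close to 0 or opposite: 0.57 in cord for Flacc1, 0.01 and -0.05 for Lman2, and -0.10 for Plekha8. Flacc1 kept its call in 12 of 13 fits without 1 RNA (lost without pool 2), Lman2 and Plekha8 in 5, and Fkbp4 in 3.

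Ndufb8, an accessory subunit of respiratory complex I, was the only one of the 5 with a called testis change and narrow values in both organs: all 10 testes lay above 0 (0.07 to 0.36, median 0.25; adjusted p = 0.00161), and the cord ratios were -0.57, -0.45 and -0.52. The difference was 0.75 ± 0.13 (SE; adjusted p = 0.0453), with the cord at -0.26 in Cy5 and -0.77 in Cy3. The call was kept in 3 of 13 fits without 1 RNA. A second Ndufb8 probe, the one used in the list below, was -0.00 ± 0.32 in testis and 0.33 ± 1.63 in cord. Next in order by p, and not called, stood Hmgcs1 (0.80, adjusted p = 0.0657), Dhx8 (0.60, 0.0657), Bola2 (1.11, 0.0684), Rhob (0.60, 0.0816), Thoc3 (1.08, 0.0826), Ldhc (0.85, 0.0851) and Dync1li2 (0.79, 0.0851). A second Dhx8 probe had the opposite signs (-0.21 in testis, 0.55 in cord). Ldhc, the lactate dehydrogenase of germ cells, rose in testis with all 10 mice above 0 (0.06 to 0.56; adjusted p = 0.00215), and its cord ratios were -0.82, -0.28 and -0.56; how strongly cord expresses it cannot be read from a ratio.

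Among the lists, respiratory chain genes had the highest shares with all 3 cord RNAs below 0 and below every testis. The chain passes electrons through complexes I to IV in mitochondria and drives ATP synthase. Of 62 measured genes, 37 were called higher in testis (59.7%, against 10.1% of all members) and none lower, all 3 cord RNAs lay below 0 in 55 (88.7%, against 21%) and above 0 in none, and in 41 (66.1%, against 7.66%) the 3 cord RNAs lay below every testis. The median member was 0.18 in testis and -0.32 in cord; by RNA, it was above 0 in 9 of 10 testes (-0.05 to 0.38) and at -0.43, -0.21 and -0.32 in cord. No list gene was called in the difference on the probe used for the list.

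Atp5b, the catalytic subunit of ATP synthase, lay between 0.10 and 0.56 in the 10 testes (adjusted p = 0.00209) and at -0.35, -0.23 and -0.34 in cord, without overlap (difference 0.60, adjusted p = 0.146). Uqcrc1, a core protein of complex III, lay between 0.11 and 0.30 in testis (adjusted p = 0.00263) and at -0.51, -0.33 and -0.18 in cord (difference 0.52, adjusted p = 0.0896). Ndufv1, the subunit of complex I that takes electrons from NADH, lay between 0.11 and 0.56 in testis (adjusted p = 0.00215) and at -0.41, -0.18 and -0.18 in cord. Cox7a2, a subunit of complex IV, was above 0 in 9 of 10 testes (-0.09 to 0.63; adjusted p = 0.00362) and at -0.55, -0.29 and -0.48 in cord.

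The cord values of the list depended on the dye. Its median in cord was -0.08 on the Cy5 arrays and -0.55 on the Cy3 arrays, and in testis 0.27 and 0.11. Testis minus cord was positive in each dye taken alone, with a median difference of 0.37 in Cy5 and 0.64 in Cy3, beside 0.50 over both. It kept its sign without any 1 RNA (0.47 to 0.56). Were the sign of the cord Cy3 ratios the other way, the median difference would be -0.02.

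Promoters of this list are shown because its members moved together and because NRF1, a nuclear respiratory factor, is a known regulator of such genes. Its motif, GCGCA and GCGC with any 1 base between, was searched on both strands from 250 bases before to 50 after each start in the RefSeq promoters (GRCm38.p6). It occurred in 13 of 53 list genes with a promoter (24.5%) and in 765 of 6987 member genes with one (10.9%). The motif is in capitals, in the members with the widest positive difference among those that hold it, and a match is a description of letters, not a site. Atp5k, a subunit of ATP synthase (chr5:108434350-108434649, minus strand), was -1.0, -0.56 and -0.60 in cord and 0.10 ± 0.20 (SD, n = 10) in testis; Ndufs6, a subunit of complex I (chr13:73328433-73328732, minus strand), was -0.65, -0.35 and -0.22 in cord and rose in testis (0.27 ± 0.24, SD, n = 10; adjusted p = 0.013), as it did on a second probe (0.30 in testis, -0.38 in cord).
Atp5k: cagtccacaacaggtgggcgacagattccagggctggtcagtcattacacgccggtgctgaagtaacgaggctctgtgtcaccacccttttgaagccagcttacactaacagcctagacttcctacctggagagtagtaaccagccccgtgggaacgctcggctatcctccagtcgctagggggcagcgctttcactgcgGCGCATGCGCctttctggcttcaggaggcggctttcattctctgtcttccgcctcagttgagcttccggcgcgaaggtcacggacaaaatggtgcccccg
Ndufs6: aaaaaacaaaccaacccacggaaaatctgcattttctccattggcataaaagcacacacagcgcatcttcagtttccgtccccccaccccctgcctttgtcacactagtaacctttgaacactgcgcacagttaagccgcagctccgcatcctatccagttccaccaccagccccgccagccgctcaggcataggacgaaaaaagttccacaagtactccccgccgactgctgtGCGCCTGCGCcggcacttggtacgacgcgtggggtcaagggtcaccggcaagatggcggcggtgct

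Citric acid cycle and glycolysis genes shared the cord side only in part. Of 26 measured, all 3 cord RNAs lay below 0 in 17 (65.4%, against 21% of all members) and above 0 in 3 (11.5%, against 18.5%). In testis, 3 were called higher (11.5%) and 2 lower (7.69%), near the 10.1% and 7.49% of all members. The cord median was -0.03 in Cy5 and -0.44 in Cy3. Ldhb, a lactate dehydrogenase subunit, was above 0 in all 10 testes (0.03 to 0.75; adjusted p = 0.00439) and at -0.35, -0.21 and -0.35 in cord. Tpi1, triose phosphate isomerase, was lower in testis (-0.12 ± 0.09, SD, n = 10; adjusted p = 0.0189) and at -0.51, -0.33 and -0.38 in cord, so that its sign was the same in both organs; a second probe gave 0.03 and -0.32.

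**Figure D3:**
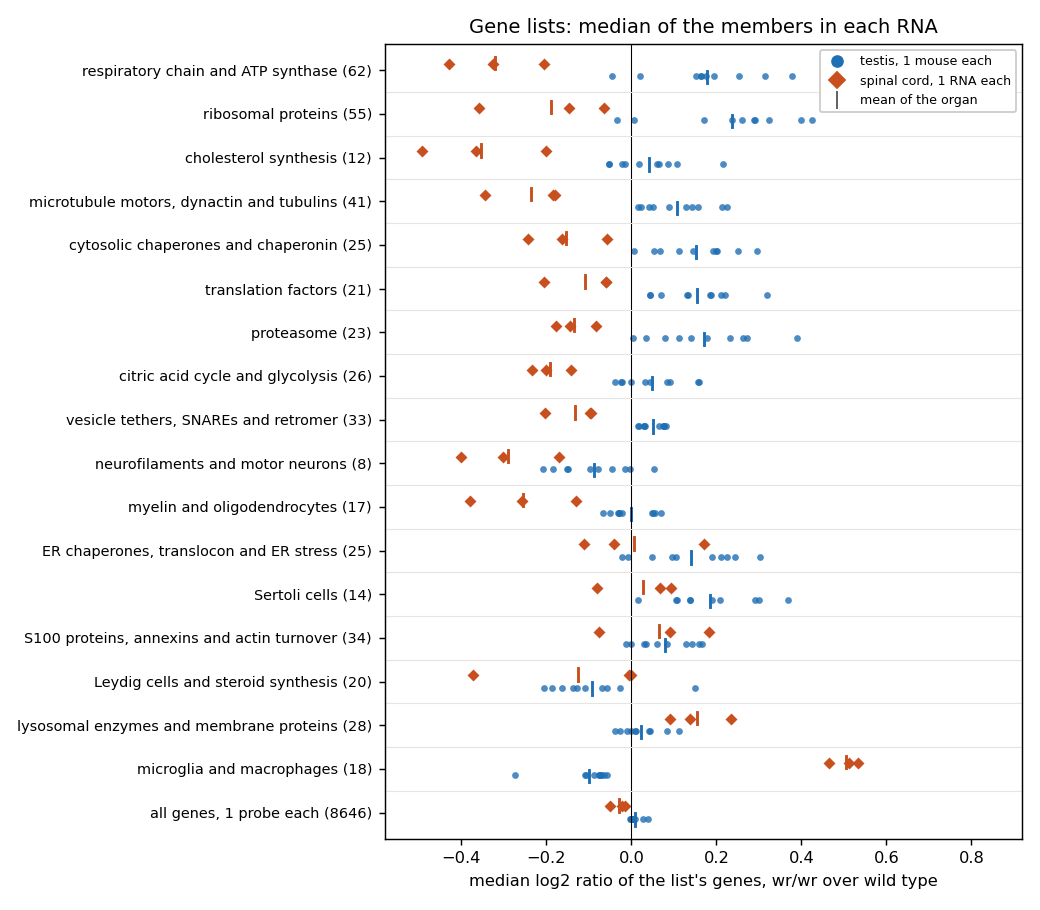
Median log2 ratio of the genes of each list (rows, number measured in brackets) in each RNA (x axis); blue points are the 10 testis mice, orange diamonds the 3 cord RNAs, ticks the mean over an organ's RNAs. For respiratory chain genes the diamonds lie at -0.43, -0.21 and -0.32 and the testes from -0.05 to 0.38, and microglial and macrophage genes have the reverse order.

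More than 1 in 2 genes of protein synthesis and breakdown were called higher in testis. Of 55 ribosomal protein genes, 37 were called higher (67.3%, against 10.1% of all members) and none lower; of 21 translation factors, 12 (57.1%) and none; of 23 proteasome genes, 16 (69.6%) and none. The other 18, 9 and 7 did not pass. In cord, all 3 RNAs lay below 0 in 30, 8 and 12 of them (54.5%, 38.1% and 52.2%, against 21% of all members). They lay above 0 in 2, 0 and 1 (3.64%, 0% and 4.35%, against 18.5%). The medians were 0.23 in testis and -0.17 in cord for ribosomal proteins, 0.17 and -0.12 for translation factors, and 0.16 and -0.13 for the proteasome. No member of these 3 lists was called in the difference.

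The cord side of these lists was a matter of dye. On the cord Cy5 arrays the median was 0.08 for ribosomal proteins, 0.04 for translation factors and 0.02 for the proteasome, against -0.43, -0.29 and -0.29 on the Cy3 arrays. The testis medians were above 0 in each dye (0.34 and 0.13, 0.22 and 0.09, 0.22 and 0.15), and the median difference was positive in each (0.29 and 0.58, 0.15 and 0.41, 0.17 and 0.42). Rpl14, of the large ribosomal subunit, was above 0 in 10 of 10 testes (0.03 to 0.64; adjusted p = 0.00277) and at -0.38, -0.19 and -0.13 in cord. Psmc3, an ATPase of the proteasome cap, was 0.07 to 0.58 in testis (adjusted p = 0.00283) and -0.39, -0.24 and -0.20 in cord, with the cord below 0 in both dyes (-0.21 and -0.34). Rpl8, also of the large subunit, rose in testis (0.11 to 0.55; adjusted p = 0.0027) and overlapped in cord (0.60, -0.08 and 0.02); its 2 other probes had cord means of -0.07 and -0.11.

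The list of cytosolic chaperones and the chaperonin, which folds new actin and tubulin among other proteins, also held the mitochondrial Hspe1 and Hspd1. Of its 25 measured members, 15 were called higher in testis (60%, against 10.1% of all members) and none lower. All 3 cord RNAs lay below every testis in 14 of the 25 (56%, against 7.66%). They lay below 0 in 14 (56%, against 21%), with medians of 0.16 in testis and -0.15 in cord (-0.00 in Cy5, -0.24 in Cy3). The chaperonin subunits Cct4 (0.11 to 0.64; adjusted p = 0.00197), Cct3 (0.10 to 0.43; 0.00206) and Cct7 (0.00 to 0.47; 0.00425) were above 0 in all 10 testes, with cord values of -0.28, -0.01 and -0.11 for Cct4. Hsp90aa1, the inducible cytosolic Hsp90, rose in testis (0.21 ± 0.14, SD, n = 10; adjusted p = 0.00741) and was -0.51, -0.26 and -0.47 in cord (difference 0.62, adjusted p = 0.128); a second probe gave -0.00 and 0.21. Fkbp4, described above, belongs to the same list.

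The heat shock element is shown for the same reason as the NRF1 motif. It was searched as GAA, TTC and GAA with any 2 bases between neighbours, on both strands, and was in 3 of 22 chaperone promoters (13.6%) and in 43 of 6987 (0.615%). Hspe1 and Hspd1, which encode the mitochondrial chaperonin Hsp10 and Hsp60, start head to head. They share the 1 stretch with overlapping matches, in capitals, so that this stretch was counted for each of them. The AP-1 motif, TGANTCA with N as any base, was also searched. It was in 1 of 12 axon injury promoters (8.33%), 3 of 17 microglial and macrophage promoters (17.6%) and 487 of 6987 (6.97%). Hspe1 and Hspd1 were called higher in testis (0.20 ± 0.19, adjusted p = 0.0216, and 0.26 ± 0.21, adjusted p = 0.0102; SD, n = 10), and both had all 3 cord RNAs below the testes (-0.16, -0.15 and -0.37 for Hspe1; -0.38, -0.05 and -0.07 for Hspd1). The window of Hspe1 is chr1:55087898-55088197, plus strand (GRCm38.p6, RefSeq).
Hspe1: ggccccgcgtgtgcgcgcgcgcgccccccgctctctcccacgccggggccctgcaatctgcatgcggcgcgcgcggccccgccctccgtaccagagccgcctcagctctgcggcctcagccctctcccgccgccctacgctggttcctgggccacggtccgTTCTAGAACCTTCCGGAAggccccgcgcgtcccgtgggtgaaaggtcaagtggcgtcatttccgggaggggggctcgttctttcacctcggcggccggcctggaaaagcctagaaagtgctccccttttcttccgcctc

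Chaperones of the endoplasmic reticulum shared the testis side but not the cord side. Of 25 measured, 11 were called higher in testis (44%, against 10.1% of all members) and 1 lower (4%, against 7.49%). In cord, 5 lay above 0 (20%, against 18.5%) and 7 below 0 (28%, against 21%) in all 3 RNAs. These cord shares were near those of all members, and the cord median was 0.02 (0.08 in Cy5 and -0.05 in Cy3). Hspa5, the main chaperone of this compartment, was above 0 in all 10 testes (0.04 to 0.70; adjusted p = 0.00631) and at 0.18, 0.09 and -0.03 in cord. Hsp90b1, its Hsp90, rose in testis (-0.01 to 0.64; adjusted p = 0.00665) and was -0.45, -0.09 and -0.39 in cord. Of 30 splicing factors, 9 were called higher in testis (30%, against 10.1% of all members) and 1 lower (3.33%, against 7.49%). All 3 cord RNAs lay above 0 in 4 (13.3%, against 18.5%) and below 0 in 2 (6.67%, against 21%), with a cord median of 0.03.

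Cholesterol synthesis genes lay low in cord. The pathway makes sterol for membranes, for myelin and, in testis, for steroids. Of 12 measured, all 3 cord RNAs lay below 0 in 9 (75%, against 21% of all members) and above 0 in 1 (8.33%, against 18.5%). They lay below every testis in 6 (50%, against 7.66%). In testis, 3 were called higher (25%, against 10.1%) and none lower (against 7.49%). The medians were -0.40 in cord and 0.04 in testis, and the cord median was below 0 in both dyes (-0.26 and -0.53). Hmgcs1, which makes HMG-CoA, was measured by 2 probes with like values: -0.43, -0.59 and -0.94 in cord for one (testis -0.04 to 0.29; higher in testis, adjusted p = 0.0247; difference 0.80, adjusted p = 0.0657) and -0.58, -0.55 and -0.60 for the other (testis -0.08 to 0.55; difference 0.70, adjusted p = 0.153), with -0.65 and -0.66 in Cy5 and Cy3 for the first.

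Fdps, which makes farnesyl pyrophosphate, rose in testis (-0.07 to 0.50; adjusted p = 0.0075) and was -0.63, -0.25 and -0.71 in cord, and Ebp, a sterol isomerase, rose in testis (-0.05 to 0.72; adjusted p = 0.0438) and was -0.42, -0.51 and -0.40 in cord, in both dyes (-0.46 and -0.42). Srebf2, the transcription factor of the pathway, had cord ratios of -1.85, -0.05 and -1.67 and a testis mean of -0.11 ± 0.09 (SD, n = 10). The sterol response element searched, TCACNCCAC on both strands, with N as any base, was in 1 of 10 list promoters, that of Hmgcs1, and in 101 of 6987 (1.45%). It is shown in capitals in the window chr13:119690101-119690400, plus strand (GRCm38.p6, RefSeq).
Hmgcs1: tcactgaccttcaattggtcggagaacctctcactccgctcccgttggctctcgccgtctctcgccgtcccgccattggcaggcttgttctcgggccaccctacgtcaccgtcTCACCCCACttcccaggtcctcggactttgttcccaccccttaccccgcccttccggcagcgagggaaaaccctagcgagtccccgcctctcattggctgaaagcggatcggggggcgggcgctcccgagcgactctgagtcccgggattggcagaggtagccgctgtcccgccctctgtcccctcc

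**Figure D4:**
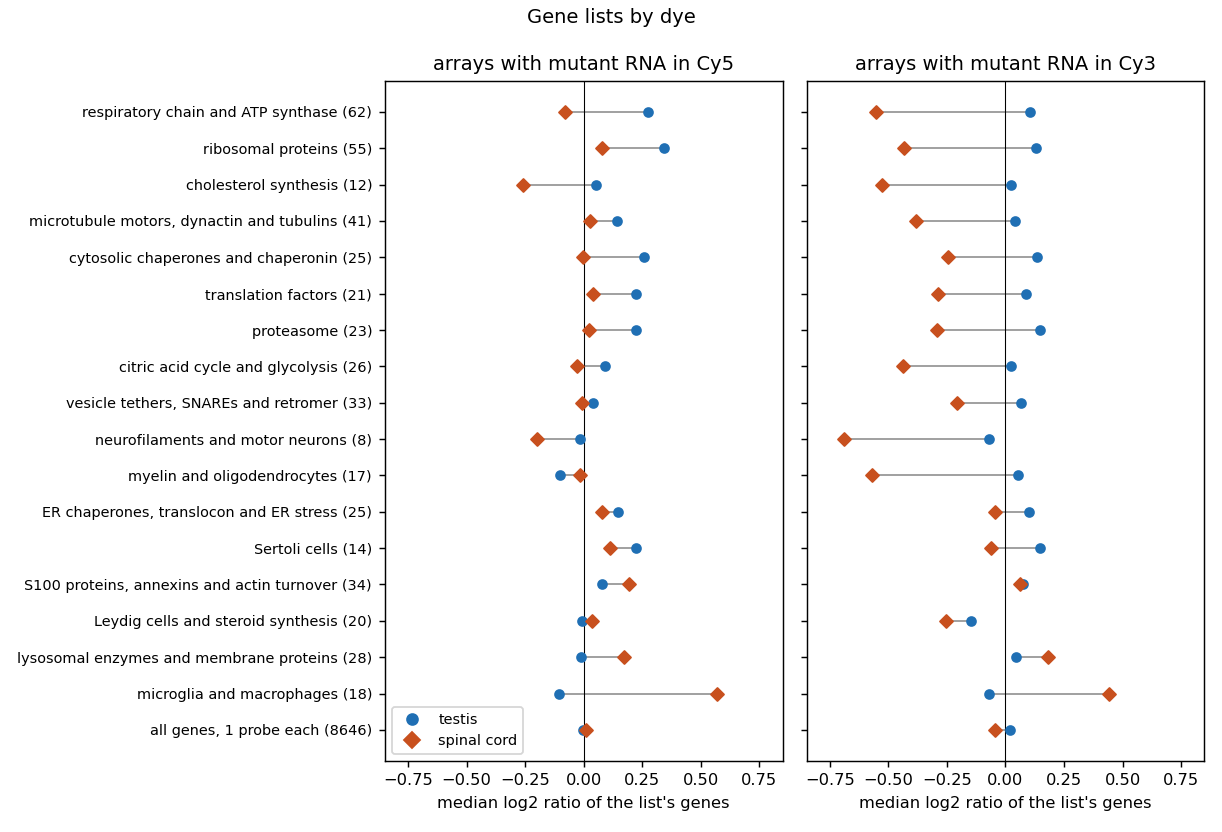
Median log2 ratio of each list's genes on arrays with the mutant RNA in Cy5 (left) and in Cy3 (right); blue points are testis, orange diamonds cord, and grey lines join them. The respiratory chain median is 0.27 in testis and -0.08 in cord in Cy5, and 0.11 and -0.55 in Cy3, so the gap keeps its direction while both points shift with the dye.

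Tubulins, motors and dynactin build and use microtubules in axons and in the sperm tail. Of 41 measured, 16 were called higher in testis (39%, against 10.1% of all members) and 1 lower, and all 3 cord RNAs lay below 0 in 28 (68.3%, against 21%) and below every testis in 23 (56.1%, against 7.66%). The low cord values lay in 1 dye: the cord median was 0.03 in Cy5 and -0.38 in Cy3, and the median difference 0.16 and 0.54. Tuba1b, an alpha tubulin, lay between 0.13 and 0.45 in all 10 testes (adjusted p = 0.000973) and at -0.33, -0.14 and -0.17 in cord, but its cord value was 0.21 in Cy5 and -0.64 in Cy3. Dync1li2, a light intermediate chain of dynein, was 0.03 to 0.47 in testis (adjusted p = 0.00537) and -0.88, -0.36 and -0.45 in cord, below 0 in both dyes (-0.92 and -0.21); its second probe gave -0.01 and -0.10. Dynll1, a dynein light chain, rose in testis (0.21 ± 0.16, SD, n = 10; adjusted p = 0.0104) and was -0.48, -0.23 and -0.46 in cord.

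Vesicle tethers, SNAREs and retromer are the machinery in which GARP works. Of 33 measured, 3 were called higher in testis (9.09%, near the 10.1% of all members) and none lower. All 3 cord RNAs lay below 0 in 13 (39.4%, against 21% of all members) and above 0 in 1 (3.03%, against 18.5%). The medians were 0.05 in testis and -0.11 in cord (-0.01 in Cy5 and -0.21 in Cy3). Cog4, of the Golgi tether COG, was 0.05 to 0.32 in testis (adjusted p = 0.00656) and -0.21, -0.27 and -0.24 in cord. Vps41, of the lysosomal tether HOPS, rose in testis (0.12 ± 0.08, SD, n = 10; adjusted p = 0.024) and was -0.32, -0.17 and -0.09 in cord. The GARP subunits that share the complex with Vps54 had uncalled values: Vps52 was 0.09 ± 0.07 in testis and -0.35, -0.12 and -0.76 in cord (difference 0.50, adjusted p = 0.132), and Vps53 was -0.06 ± 0.35 in testis and 0.95, -0.03 and 0.22 in cord, with cord means of 0.20 and 1.23 on its 2 other probes.

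Genes of neurons and myelin lay low in cord and near 0 or slightly low in testis. For neurofilaments and motor neuron genes, all 3 cord RNAs lay below 0 in 4 of 8 (50%, against 21% of all members) and above 0 in none. In testis, 3 of the 8 were called lower (37.5%, against 7.49%) and 1 higher (12.5%, against 10.1%). Nefh, the heavy neurofilament, was -1.0, -0.85 and -0.84 in cord and fell in testis (-0.43 to 0.08; adjusted p = 0.0118); the difference was 0.71 (adjusted p = 0.11). Nefm, the medium neurofilament, was -0.64, -0.71 and -0.90 in cord and -0.25 to 0.22 in testis (difference 0.72, adjusted p = 0.0987). Of 17 myelin genes, 10 lay below 0 in all 3 cord RNAs (58.8%, against 21% of all members) and none above. Among the 10 was Mobp at -0.72, -0.76 and -0.69 (testis -0.40 to 0.16), with -0.58 as the cord mean of its second probe. Of 29 genes of the neuronal list, 14 lay below 0 (48.3%, against 21%) and 2 above 0 (6.9%, against 18.5%) in all 3 cord RNAs. In Cy5 alone the cord median of the myelin list was -0.02 and of the neuronal list 0.16, against -0.57 and -0.35 in Cy3.

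Genes with the same sign in both organs were fewer when the dyes were averaged as deposited. By the rule of a call in testis, the same sign in 90% or more of the testes and the same sign in all 3 cord RNAs, 84 probes (82 genes) were higher in both and 104 (102 genes) lower in both, against 449 (425 genes) higher in testis and below 0 in cord and 230 (226 genes) lower in testis and above 0 in cord. By another count, probes called in both organs, there was 1 with the same and 1 with opposite signs, and likewise on Cy5 arrays alone. This count was 35 with the same and 8 with opposite signs on Cy3 arrays alone, and 10 and 12 with the cord Cy3 arrays turned. Vim, the intermediate filament of reactive astrocytes and of Sertoli cells, was the only gene called in both organs in one direction: testes lay between 0.12 and 0.77 (median 0.38; adjusted p = 0.00155) and cord at 1.37, 1.65 and 1.25 (adjusted p = 0.0347). All 3 cord RNAs lay above the testes, and the difference of -1.02 was not called (adjusted p = 0.0917). Without mouse 5907, 5997 or 6069 or without pool 2, no probe was called in both organs in one direction, and without the cord RNA of mouse 5995 there were 6. The second Vim probe was alike (0.23 in testis, adjusted p = 0.0163; 0.97, 1.32 and 1.17 in cord).

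Cst12, a cystatin of Sertoli cells, rose in testis in 10 of 10 mice (0.31 to 1.08; median 0.76; adjusted p = 6.29e-05) and was 0.88, 0.31 and 0.40 in cord, within the testis range and in both dyes (0.56 and 0.50). Rbm3, a cold-induced RNA-binding protein, rose in testis (-0.15 to 0.85; adjusted p = 0.0149) and was 0.80, 0.80 and 0.77 in cord. Cd63, a tetraspanin of late endosomes and lysosomes, rose in testis (0.00 to 0.77; adjusted p = 0.00939) and was 0.72, 0.63 and 0.61 in cord, in both dyes (0.75 and 0.56). Smpx, a small muscle protein (0.55, 0.21 and 0.57 in cord), Siva1, a pro-apoptotic factor (0.91, 0.34 and 0.18), Cbfa2t3, a transcriptional corepressor (1.25, 0.91 and 0.97), Lyar, a nucleolar protein (0.18, 0.52 and 2.08), and the probes of Gm136 and 3110070M22Rik had testis means from 0.26 to 0.31, all called. Second probes of Lyar and Smpx had both means above 0, and that of Cbfa2t3 both below (-0.31 and -0.17); the Lyar probe was -1.65 in Cy5 and 3.50 in Cy3 in cord. The S100 proteins and annexins supplied another with both signs positive: S100a6, a calcium-binding protein, rose in testis (0.25 ± 0.16, SD, n = 10; adjusted p = 0.00725) and was 0.42, 1.13 and 0.79 in cord.

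**Figure D5:**
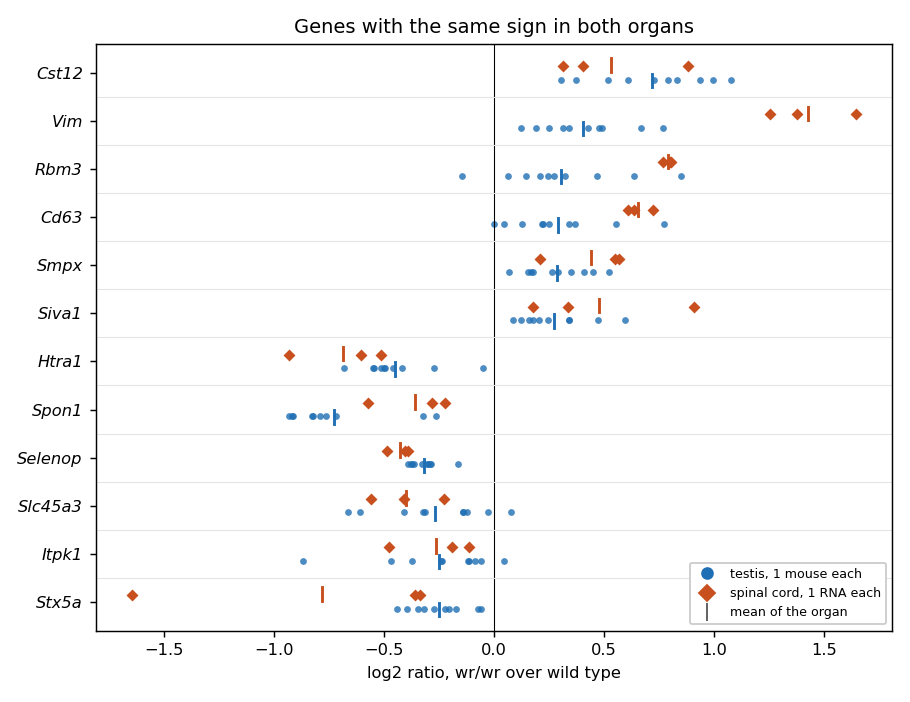
Log2 ratio of wr/wr over wt in each RNA (x axis) for 12 of the genes with the same sign in both organs (rows; upper 6 positive, lower 6 negative); blue points are single testis mice, orange diamonds the 3 cord RNAs, ticks the organ means. Selenop is the tightest of the lower 6, with testes from -0.39 to -0.16 and cord at -0.41, -0.39 and -0.49.

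Selenop, the selenium carrier protein that supplies both brain and testis, fell in 10 of 10 testes (-0.39 to -0.16, median -0.32; adjusted p = 3.07e-05) and was -0.41, -0.39 and -0.49 in cord, with the same size in both dyes (-0.46 and -0.40). The difference was 0.11 ± 0.12 (SE; adjusted p = 0.683). Htra1, a secreted serine protease, fell in testis (-0.68 to -0.05; adjusted p = 0.000253) and was -0.93, -0.52 and -0.61 in cord. Spon1, an extracellular matrix protein of axon guidance, fell in testis (-0.93 to -0.26; adjusted p = 2.41e-05) and was -0.57, -0.28 and -0.22 in cord; its other 2 probes were -0.11 and 0.15 in testis. Stx5a, the Golgi SNARE syntaxin 5, fell in testis (-0.44 to -0.06; adjusted p = 0.011) and was -1.65, -0.36 and -0.34 in cord, but -1.75 in Cy5 and 0.18 in Cy3, and its second probe was near 0 in both organs (-0.02 and -0.06). Dhodh, Spink5, Slc45a3, Itpk1, Ccdc184 and a probe of Glul completed the 10, with testis means from -0.37 to -0.25 and cord means from -0.67 to -0.26; on all 3 of its probes Itpk1 had both means below 0, and a second Dhodh probe was 0.04 and -0.18.

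The named probes with the widest opposite values were lower in testis and above 0 in cord, and for the 5 of these 10 genes that had a second probe it did not share the pattern. The probe of Itih2, a chain of the plasma inter-alpha-inhibitor, lay between -4.33 and -0.23 in testis (median -0.81; adjusted p = 0.0132) and at 2.71, 1.67 and 2.33 in cord, with both dyes alike (-1.0 and -1.56; 2.52 and 1.95). Atp5h (-1.48 ± 1.26 in testis, SD, n = 10; 2.12, 0.94 and 1.58 in cord), Glul, Ppp2r5d, Ap5z1, Snx18, Hsf2bp, Leng8, Nt5c and Inf2 had the same layout, with testis means from -1.48 to -0.81 and cord means from 0.70 to 1.94. None of their differences was called (adjusted p from 0.127 for Glul to 0.365 for Inf2), since the testes spread by SDs of 0.46 to 1.26. None of these second probes had a testis mean below 0 with a cord mean above 0: Atp5h, an ATP synthase subunit, was 0.24 and -0.36 on the other probe, Glul, glutamine synthetase, -0.36 and -0.48, Hsf2bp 0.19 and -0.27, Ppp2r5d 0.04 and 0.11, and Snx18 -0.12 and -0.19. The direction of these 5 genes is therefore not settled by their probes. The 10 probes also moved together across the testes, so they cannot be counted as 10 separate responses. Mouse 5907 was the lowest testis on all but that of Leng8, as at -4.33 for Atp5h, -3.08 for Nt5c and -3.03 for Ap5z1. Mouse 5905 lay nearest 0 on most of them, as at -0.35 for Atp5h and -0.15 for Ap5z1. The cause was not tested.

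Opposite genes of the other direction were smaller in size. Cst13, a cystatin of the testis, was 0.01 to 0.92 in testis (adjusted p = 0.00329) and -0.82, -0.35 and -0.39 in cord. Timm8b, a chaperone of mitochondrial import, was -0.02 to 0.58 in testis (adjusted p = 0.00321) and -0.70, -0.26 and -0.48 in cord. Gpr34, a receptor of microglia, rose in testis (-0.05 to 0.66; adjusted p = 0.00461) and was -0.84, -0.30 and -0.40 in cord, opposite in sign to the median of the microglial list. Irf2bp2, Nsd1, Thoc3 and Ankrd63 had the same signs, with cord means of -0.83, -0.39, -0.75 and -0.34; for Nsd1 and Thoc3 the cord was negative in Cy5 (-1.97 and -2.16) and positive in Cy3 (1.19 and 0.65).

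Among the lists of testis cell types, Sertoli genes had the highest share called higher: 6 of 14 (42.9%, against 10.1% of all members) and 1 lower, with a median of 0.20 in testis and 0.00 in cord (0.11 in Cy5 and -0.06 in Cy3). Clu, clusterin, an abundant Sertoli protein that astrocytes also make, rose in 10 of 10 testes (0.15 to 0.77; adjusted p = 0.00159) and was -0.08, 0.25 and 0.41 in cord. Sox9, a transcription factor of Sertoli cells and of astrocytes, rose in testis (-0.03 to 0.42; adjusted p = 0.00881) and was 0.16, 0.37 and 0.34 in cord; its second probe gave -0.14 and 0.06. Among germ cell lists, 4 of 14 meiotic spermatocyte genes were called higher (28.6%) and 1 lower, and 2 of 8 spermatogonial genes lower (25%). For round spermatid and acrosome genes (2 of 30 higher, 6.67%, and 2 lower) and genes of elongating spermatids and sperm tail (7 of 44 higher, 15.9%, and 3 lower, 6.82%) the shares were near those of all members (10.1% and 7.49%). Prm1, a sperm protamine, showed how far the dyes can part in cord, at -3.44 in Cy5 and 3.27 in Cy3 (testis 0.28 ± 0.44, SD, n = 10).

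The remaining lists are read against 10.1% of all members called higher and 7.49% lower in testis. S100 proteins, annexins and actin turnover genes had 6 of 34 called higher in testis (17.6%) and none lower. All 3 cord RNAs lay above 0 in 11 (32.4%, against 18.5% of all members) and below 0 in 7 (20.6%, against 21%). S100a4, a calcium-binding protein of motile cells, was 0.92, 1.50 and 0.80 in cord and -0.50 to 0.10 in testis (difference -1.17, adjusted p = 0.0657). Of 26 human motor neuron disease genes, 4 were called higher (15.4%) and 1 lower (3.85%) in testis, near the background. In all 3 cord RNAs, 11 lay below 0 (42.3%, against 21%) and 2 above 0 (7.69%, against 18.5%), with cord medians of 0.03 in Cy5 and -0.26 in Cy3. Oxidative defence genes had 7 of 29 higher (24.1%) and 3 lower in testis, matrix genes 3 and 1 of 26, cell cycle genes 4 and 0 of 29, glucocorticoid responsive genes 0 and 3 of 16, endothelial genes 0 and 2 of 13, peritubular genes 0 and 0 of 5, red blood cell genes 1 and 1 of 5, and genes near Vps54 1 and 0 of 15. The red blood cell count uses 1 probe of Hba-a1, an alpha globin, with a testis mean of -0.08; its 5 other probes were all called higher in testis (0.31 to 0.51; adjusted p from 0.00321 to 0.0206) and had cord means from -0.25 to -0.13. Over all 37 lists, the median difference had the same sign in each dye in 22 and kept its sign without any 1 RNA in 30. Of the 22, 13 kept the sign with the cord Cy3 arrays turned.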

How the data were processed

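RNA of testis and spinal cord of wr/wr mice was compared with wild-type pools on 50 two-colour arrays. The deposited value table holds 1 log ratio per probe and array, read as log2; no source used here states the base, background correction, normalization or direction. Each array was centred on its median, 1472 values (0.149%) over 10 in size were set to missing, and Cy5 and Cy3 means were averaged per RNA. For 10 testis and 3 cord RNAs, limma 3.58.1 (R 4.3.3) fitted both organs with a weight for each (1.42 and 0.311); p-values were adjusted over all 16838 members by the Benjamini-Hochberg method at 0.05. The fit was tested on simulated data. GEO's platform annotation, updated by gene ID to RefSeq (GRCm38.p6) for 13994 symbols, named 14030 of 20355 probes with 1 gene, 5 with several and 6320 with none.

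Named genes were up to 12 called or next by p for each sign of testis minus cord, 10 alike and 10 opposite for each testis direction (called in testis, same sign in 90% of testes and 1 sign in all 3 cord RNAs), and up to 6 members per list by p; cell type markers were named too. Lists used 1 probe per gene. Members and lists were chosen with earlier results of these data known. The cord RNAs share animals with the testes, so a paired fit with the animals as a replicate block was also run; deviations of a cord RNA and its own mice's testes correlated at -0.00184, 0.0146 and -0.0133 (pool 1, pool 2, mouse 5995). Alternatives were the spread, the limit on values, scaling, single dyes, turned cord Cy3 arrays, completeness, averaged probes and leaving out RNAs. The number of arrays and of cord RNAs limits the precision. The wr/wr samples are separate mice in testis; in cord, pools of 4 mice hide the spread between animals.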

Additional observations from a re-analysis of the deposited data

Results flagged for a closer look

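Testis and cord responses to the mutation differed by a test of the difference itself for 28 probes (limma, adjusted p under 0.05). Testis minus cord was positive for Fkbp4 (1.401), Flacc1 (1.033), Lman2 (1.024), Plekha8 (0.8822) and Ndufb8 (0.7466), and for probes 11422 (1.226) and 17067 (0.9869), which have no gene symbol. It was negative for Nucb2 (-1.936), Agt (-1.658), Csrp3 (-1.575), Fam122c (-1.533), Slc6a16 (-1.471), Lgals3 (-1.432), Pik3ap1 (-1.322), Ank3 (-1.321), Sun2 (-1.039), Apoc1 (-1.01), Pcolce (-0.8505), Pde4d (-0.7546) and C1qc (-0.7327). The remaining 8 have no gene symbol: probes 5803 (-2.22), 12153 (-1.637), 19528 (-1.628), 14134 (-1.065), 9971 (-0.9943), 10694 (-0.9069), 4401 (-0.8823) and 12106 (-0.7912). Probe 19528 was -1.38 in testis and 0.25 in cord, and probe 12106 alone had a difference of opposite sign in each dye (0.14 in Cy5 and -1.72 in Cy3).

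In 5 of 63 groups of testis values for named probes (7.94%, where chance gives about 1 in 20), 1 mouse stood apart by Dixon's gap. Mouse 5907 did so for Itih2 (-4.332, next -2.221), Dhodh (-1.277, next -0.5242) and Lyar (0.7415, next 0.3472), mouse 6065 for Nucb2 (-0.7555, next -0.3368), and mouse 6493 for Selenop (-0.1628, next -0.2855).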

How the results depend on the processing

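The main counts were 28 probes called in testis minus cord, 2971 in testis, 11 in cord, and 1 in both organs with the same and 1 with opposite signs. In that order, they were 3656, 1398, 2762, 52 and 233 with 1 pooled spread. Keeping values over 10 gave 8 for the difference, 6 in cord and 0 with the same sign; scaled arrays gave 809, with 50 in cord, 4 same and 11 opposite. Only Cy5 arrays gave 18 and only Cy3 arrays 338, with 1546 in testis, 357 in cord, 35 same and 8 opposite; of the 28, 1 remained in Cy5 and 19 in Cy3. With the sign of the cord Cy3 arrays turned there were 268, with 233 in cord, 10 same and 12 opposite, and 4 of the 28 remained. Probes with both dyes in 2 or more RNAs of each organ gave 9, with 6 in cord and 0 same, and leaving out testis mice 5905, 5997 and 6065, whose dyes were opposed, gave 10, with 0 in cord, 0 same and 0 opposite. Averaging the probes of a gene gave 1645 in testis and 5 in cord (fewer features tested), and fitting each organ alone gave 0 in cord. Without 1 RNA the ranges were 1 to 130, 1847 to 3019, 2 to 75, 0 to 6 and 0 to 10. The paired fit with the animals as a replicate block gave 0, against 2315 probes at an unadjusted p under 0.05.

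Spearman's rho of testis and cord ratios, -0.217, was 0.101 in Cy5, 0.0196 in Cy3, 0.0883 with the cord Cy3 arrays turned and -0.177 with 2 or more RNAs, and ran from -0.226 to -0.181 without 1 RNA. With the cord Cy3 arrays turned, the difference changed sign for Ndufb8 (-0.028), Dhx8 (-0.10), Bola2 (-0.21), Rhob (-0.17), Ldhc (-0.081), Nucb2 (0.19), Fam122c (1.30), Slc6a16 (0.75), Pik3ap1 (0.87), Ank3 (0.91), Sun2 (0.044) and Pde4d (0.12). The cord mean then changed sign for 3110070M22Rik (-0.38), Smpx (-0.37), Gm136 (-0.055), Cbfa2t3 (-0.77), Lyar (-2.58), Cst13 (0.25), Gpr34 (0.29), Cox7a2 (0.28), Timm8b (0.30), Ankrd63 (0.22), Hsp90b1 (0.25), Ldhb (0.25), Leng8 (-0.0063), Inf2 (-0.28), Htra1 (0.32), Spon1 (0.21), Glul (0.39), Itpk1 (0.019) and Ccdc184 (0.22). Cy5 alone turned the cord mean of 3110070M22Rik (-0.024) and Lyar (-1.65), and Cy3 alone the difference of Thoc3 (-0.22) and the cord mean of Nsd1 (1.19), Thoc3 (0.65), Spink5 (0.87) and Stx5a (0.18). The cause of these changes was not tested. The direction of the ratios and the agreement of the dyes limit every cord value, as do 3 cord RNAs.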
